A study of Mus musculus with 15 samples.

Results

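Transcripts of 10 genes of chromosome segregation were measured in mouse oocytes: the Aurora kinases Aurka, Aurkb and Aurkc, the chromosomal passenger genes Incenp and Birc5, and the spindle checkpoint genes Bub1, Bub1b, Bub3 and Mad2l1 with their target Cdc20. The genes were taken by name and are 10 of the 53700 genes listed in the count tables. RNA with a poly(A) tail came from germinal vesicle (GV) oocytes, fully grown oocytes still arrested in the first meiotic prophase, with 15 oocytes in each library. The groups were Padi6 heterozygotes (Padi6 +/-, called het here, n = 3) and Padi6 knockouts (Padi6 -/-, KO, n = 3) on the FVB/N background, and Tle6 heterozygotes (Tle6 +/-, n = 2) and Tle6 knockouts (Tle6 -/-, n = 4) on the C57BL/6J background. No group was wild type: the controls of each line carry 1 disrupted copy of the gene studied, although bracketed names in the titles call them WT. Without PADI6, a peptidylarginine deiminase, or TLE6, part of the subcortical maternal complex, oocytes are known to lack cytoplasmic lattices, the fibres that fill their cytoplasm, and the design compares knockout with heterozygous oocytes in each line. The sources used here do not give the animals behind a biological replicate or the way each allele was made.

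The spindle checkpoint delays anaphase until every kinetochore is held by microtubules. BUB1, BUBR1 (the product of Bub1b), BUB3 and MAD2 (Mad2l1) collect at unattached kinetochores and keep CDC20 from activating the anaphase-promoting complex (APC/C), the ubiquitin ligase that marks securin and cyclin B for destruction. The chromosomal passenger complex joins an Aurora kinase, B or in germ cells also C, to the scaffold INCENP, to survivin (Birc5) and to borealin, and releases faulty microtubule attachments so that the checkpoint can act. Aurora A works at the spindle poles, where mouse oocytes organise microtubules without centrioles. Fully grown oocytes transcribe little and carry these messages in store for the meiotic divisions.

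Gene counts per library ran from 30100177 to 74947533, and each of the 10 genes had at least 1118 counts in every biological replicate. Levels below are CPM, counts scaled to the library's gene total by edgeR's trimmed mean of M-values (TMM), over the 12 biological replicates unless libraries are named. Padi6 itself was at 1747, 1595 and 1670 CPM in Padi6 het and at 24.8, 23.5 and 18.8 CPM in Padi6 KO, while Tle6 was at 457.3 and 429.6 CPM in Tle6 het and at 91.4, 76.5, 61.1 and 97.1 CPM in Tle6 KO. Both targeted genes thus went with their labels. The oocyte markers Zp3 (1180 to 1970 CPM) and Gdf9 (3220 to 4680 CPM) were high in every replicate. The granulosa markers Amh (0 to 0.151 CPM), Fshr (0.106 to 1.02) and Foxl2 (0.0189 to 0.321) and the leukocyte marker Ptprc (0 to 0.13) were at or near 0. The whole granulosa list of 20 genes summed to 110 to 128 CPM in Padi6 het, 109 to 121 in Padi6 KO, 104 to 136 in Tle6 het and 110 to 132 in Tle6 KO, most of it Nr5a2 (38 to 69.6 CPM) and Cyp19a1 (19.9 to 62.3 CPM). Has2, a cumulus cell gene, was at 1.31 to 3.61 CPM in Padi6 het and 10.7 to 11.4 CPM in Padi6 KO (log2 2.19, adjusted p = 0.0109). It was the only call among the 15 genes of the granulosa list tested there. Most of that list went the other way: the fitted change was negative for 12 genes and positive for 3, with a median of -0.506. The blood and immune list of 10 genes summed to 20.2 to 34.5 CPM over all groups, most of it Pecam1 (18.9 to 31.8 CPM). The part of these markers in the results was not tested. The 2 lines differ in strain, and 5 of the 6 Padi6 libraries held 4009 to 13772 spike-in counts (the other, het replicate 3, held 40) against 5 to 45 in the Tle6 libraries, so strain, line and preparation cannot be told apart in any comparison between lines.

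Technical libraries A and B exist for Tle6 het replicates 1 and 2 and Tle6 KO replicate 4, and their counts were added. For het replicate 1 and KO replicate 4, the level in B over that in A was 0.895 to 1.06 and 0.871 to 1.08 for the 10 genes. For het replicate 2 it ran from 0.298 for Birc5 to 3.62 for Aurkc, and 7 of the 10 genes differed by more than 1.5-fold. Among 7870 genes with a mean of at least 10 CPM, 52.2% differed that much between these libraries, against 0.0635% for het replicate 1 and 0.0762% for KO replicate 4. Het replicate 2 is therefore a sum of unlike libraries, and calls that library B decided are given below with and without it.

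**Figure D1:**
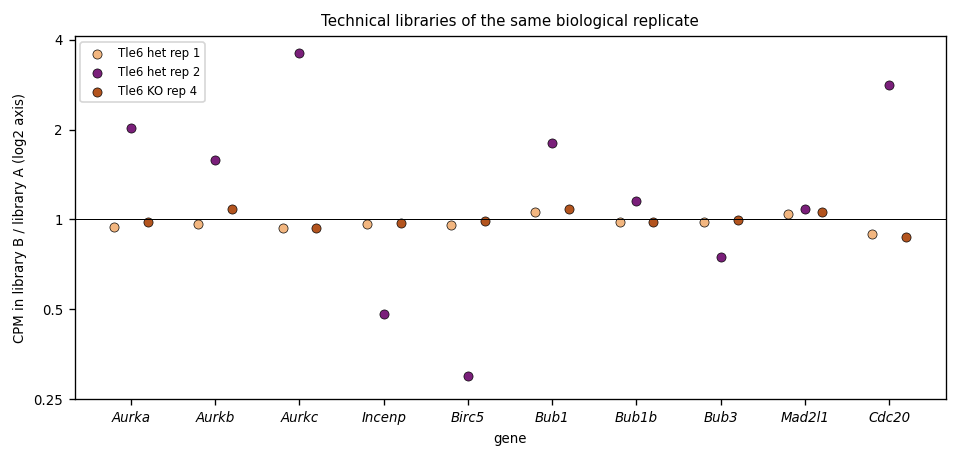
CPM in technical library B divided by CPM in library A (log2 axis) for each of the 10 genes, with 1 point for each of the 3 biological replicates that had both libraries. The points of Tle6 het replicate 1 and Tle6 KO replicate 4 lie close to 1, while those of Tle6 het replicate 2 run from 0.298 to 3.62.

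The fitted changes of the 10 genes were small under loss of Padi6. None was called among the 10 (edgeR's quasi-likelihood test with Benjamini-Hochberg adjustment over 18228 genes at an adjusted p under 0.05), where 2.41% of all genes tested were. DESeq2 and limma-voom called 0 of the 10 too. Cdc20 was called by edgeR with no filter on low counts (0.39, adjusted p = 0.039) and with a replicate block (0.39, adjusted p = 0.0354). The log2 fold changes of KO over het ran from -0.26 to 0.40 with a median of 0.08, against a median of -0.01 over all genes. Their 95% intervals reached from -0.48 at the lowest to 0.74 at the highest, so changes larger than that lie outside the intervals of all 10. An unadjusted p under 0.05 was found for 3 of them (Aurkb, Incenp and Cdc20), and 18.6% of all genes had one. The ranges of the replicates did not overlap for 3 genes, Aurkb and Aurkc above and Incenp below in KO, where 21.6% of all genes had ranges apart (11% above and 10.6% below).

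Loss of Tle6 gave no called gene among the 10 either, by edgeR (background 1.62% of 20276 genes) or limma-voom. DESeq2 called 1, Aurkb, with a log2 fold change of -0.72 and an adjusted p of 0.0245. The intervals were wider here, from -1.14 to 1.37, and the 2 het and 4 KO replicates varied more. Unadjusted p-values under 0.05 were found for Aurkb and Mad2l1, 2 of the 10, against 19% of all genes. Aurkb, Bub1 and Mad2l1 had every KO replicate below both het replicates, 3 of 10 genes with ranges apart against 28.4% of all genes (15.6% below). In pools of oocytes, fewer cells carrying a transcript and less of it per cell cannot be told apart.

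**Figure D2:**
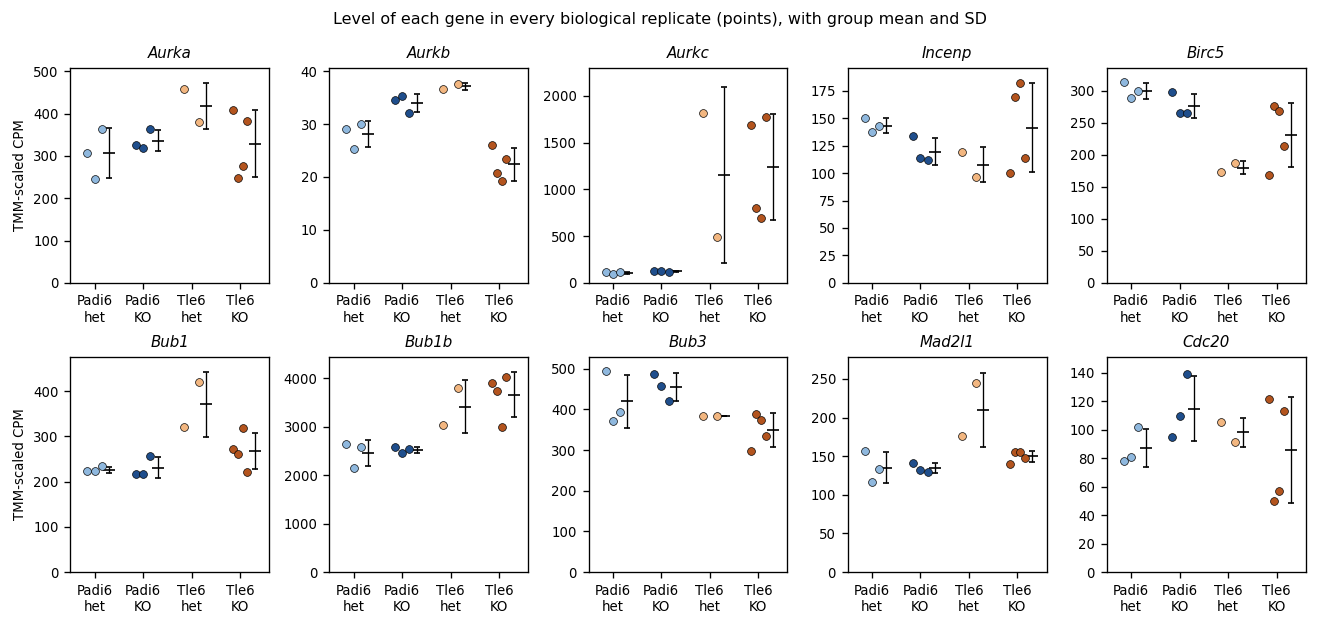
TMM-scaled CPM of each gene in every biological replicate (points), with the group mean and SD beside them, for Padi6 het and KO (n = 3 each), Tle6 het (n = 2) and Tle6 KO (n = 4). Aurkc lies at 96.5 to 127.7 CPM in the 6 Padi6-line replicates and at 486.6 to 1818 CPM in the 6 Tle6-line replicates.

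Aurkc, the Aurora kinase of germ cells, showed the widest separation of the 10 genes, and it lay between the lines rather than between genotypes. Its level was 110.5, 96.5 and 116.9 CPM in Padi6 het and 127.7, 122.2 and 118.1 CPM in Padi6 KO. In the Tle6 line it was 1818 and 486.6 CPM in het and 1684, 804.1, 695.8 and 1777 CPM in KO. Every Tle6-line replicate was above every Padi6-line replicate, and within the Tle6 line high and low replicates occurred in both genotypes. Between the heterozygotes Aurkc was 10.7-fold higher in the Tle6 line (log2 3.42 ± 0.47 SE, adjusted p = 0.000179), and between the knockouts 10.1-fold higher (3.34 ± 0.43, adjusted p = 6.48e-05). Both differences were called under all 24 alternatives run, with log2 values of 2.18 to 4.07 between hets and 2.99 to 3.53 between knockouts. Some of these alternatives left out only replicates of the genotype not compared, and so left the compared counts as they were. Library A of Tle6 het replicate 2 gave the lowest Aurkc level of the line, 192.5 CPM, and library B gave 696 CPM. The KO effect on Aurkc could not be given a direction in the Tle6 line: the log2 fold change was 0.15 with an interval from -1.07 to 1.37, and leaving out het replicate 2 or 1 moved it to -0.55 or 1.37. In the Padi6 line it was 0.18 (interval -0.03 to 0.40, adjusted p = 0.35).

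The RefSeq promoters of Aurkc and of its paralog Aurka are shown here, as Aurkc is the gene with the largest difference between lines and Aurka the Aurora transcript that differed little. Each runs from 250 bases before to 50 bases after the annotated start on the gene's own strand in GRCm38.p6, the reference of the C57BL/6J strain, at chr7:6995135-6995434 (plus strand) for Aurkc and chr2:172370521-172370820 (minus strand) for Aurka. Capitals mark TTTGAA, the core of the cell cycle genes homology region, and CCAAT, the core bound by NF-Y, each searched on both strands (so TTCAAA and ATTGG are marked too).
Aurkc: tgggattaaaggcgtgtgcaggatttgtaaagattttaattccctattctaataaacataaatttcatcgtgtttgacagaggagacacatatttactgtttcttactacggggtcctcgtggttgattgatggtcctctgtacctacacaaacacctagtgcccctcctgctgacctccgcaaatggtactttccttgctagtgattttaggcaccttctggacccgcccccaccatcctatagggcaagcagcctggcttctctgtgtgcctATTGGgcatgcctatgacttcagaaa
Aurka: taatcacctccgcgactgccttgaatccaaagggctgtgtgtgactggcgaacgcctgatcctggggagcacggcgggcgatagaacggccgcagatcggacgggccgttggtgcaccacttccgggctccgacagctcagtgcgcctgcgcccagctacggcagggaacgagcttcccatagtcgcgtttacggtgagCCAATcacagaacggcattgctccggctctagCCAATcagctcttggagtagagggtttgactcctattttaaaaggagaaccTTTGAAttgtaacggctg
The Aurkc window holds CCAAT on the minus strand, past the start, and no TTTGAA, with a GC content of 46.0%. The Aurka window holds CCAAT at 2 places and TTTGAA at 1, with a GC content of 58.0%, where the median of all promoters in the table was 52.7%. Of the 10 genes, 8 had a promoter in the table (Bub3 had 2 entries), and Aurkb and Incenp are named only. TTTGAA was found for 4 of the 8 (Aurka, Bub1b, Bub3 and Cdc20) against 17.9% of 32851 promoters, and CCAAT for 6 of the 8 against 37.4%. The counts describe letters only, and no sequence of the FVB/N strain was used.

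Aurka, the spindle pole kinase, was at 246.5 to 364.3 CPM in Padi6 het, 318.7 to 364.3 in Padi6 KO, 380.4 and 457.5 in Tle6 het and 247.5 to 409.4 in Tle6 KO. No comparison called it. The log2 fold change of KO over het was 0.14 (interval -0.16 to 0.43) in the Padi6 line and -0.31 (-0.85 to 0.24) in the Tle6 line. Only the heterozygotes had ranges apart between lines, and that difference (0.45 ± 0.22, adjusted p = 0.141) was called when library A of Tle6 het replicate 2 was left out (0.65, adjusted p = 0.0388). In library A of that replicate Aurka was at 238.1 CPM, in library B at 480.4 CPM.

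Aurkb, the catalytic subunit of the passenger complex in somatic cells, had the lowest level per kilobase of exon of the 10 genes and was the single gene of the 10 for which a difference in KO effect between the lines was called. It was at 29.1, 25.3 and 29.98 CPM in Padi6 het and at 34.6, 35.3 and 32.1 CPM in Padi6 KO. In Tle6 het it was at 36.7 and 37.6 CPM, and in Tle6 KO at 26.1, 20.8, 19.2 and 23.5 CPM. The KO replicates thus lay above the het replicates in the Padi6 line and below them in the Tle6 line. Neither KO effect passed the test within its line: the log2 fold change was 0.27 ± 0.11 for Padi6 (adjusted p = 0.217) and -0.69 ± 0.20 for Tle6 (adjusted p = 0.119). The Padi6 effect was called in 0 of 15 alternatives and the Tle6 effect in 3 of 19. The Tle6 calls came with a spread shared by both lines (-0.73, adjusted p = 0.0116), DESeq2 (0.0245) and separate technical libraries (0.0457). The test of the difference also used a spread shared by both lines. The difference between these effects was -1.01 ± 0.22 (adjusted p = 0.0219), the 1 call among the 10 genes, where 4.32% of 21392 genes were called and 3.01% were called lower. It kept its sign in all 24 alternatives (-1.17 to -0.79) and was called in 18. The call was lost without library B of Tle6 het replicate 2 (-0.80, adjusted p = 0.127) and without Padi6 het replicate 2, Padi6 KO replicate 2 or Tle6 het replicate 2 (adjusted p = 0.0612, 0.0622 and 0.0553). It was also lost with a replicate block (-0.95, adjusted p = 0.0765) and with library A only (-0.82, adjusted p = 0.124). Aurkb was at 28.0 CPM in library A of that Tle6 het replicate and at 44.2 CPM in B. Incenp, Bub1 and Mad2l1 had unadjusted p-values under 0.05 in the same test (4 genes with Aurkb, background 20.7%) and adjusted p-values of 0.231, 0.223 and 0.223.

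Between the knockouts Aurkb was lower in the Tle6 line by -0.60 ± 0.14 on the log2 scale, a ratio of 0.658 (adjusted p = 0.00472, called under all 24 alternatives). Between the heterozygotes the value was 0.40 ± 0.17 (adjusted p = 0.0869), which did not pass. It was called in 2 of 24 alternatives, under DESeq2 (0.41, adjusted p = 0.0443) and without library A of Tle6 het replicate 2 (0.56, adjusted p = 0.0312). The order of the 4 group means was Tle6 het (37.1 CPM), Padi6 KO (34.0), Padi6 het (28.1) and Tle6 KO (22.4). Only the last neighbours, Padi6 het and Tle6 KO, overlapped.

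Because the kinases are paralogs, they were also set side by side per length, as the share of each in the summed counts per kilobase of the 3 genes (exon union lengths of 2531, 2946 and 1523 bases for Aurka, Aurkb and Aurkc). Aurka held 59.8% ± 2.43 of the Aurora transcripts in Padi6 het and 59.0% ± 2.52 in Padi6 KO (SD, n = 3 each), and Aurkc 35.4% ± 2.09 and 35.8% ± 2.15. In the Tle6 line Aurkc was the leading Aurora transcript, with 86.1 and 66.2% in het and 84.5% ± 3.66 (n = 4) in KO, and Aurka held 22.1% ± 12.8 (n = 2) and 14.6% ± 3.40. Aurkb was the smallest of the 3 in every replicate, at 4.41 to 5.49% in the Padi6 line and 0.601 to 2.65% in the Tle6 line. KO and het shares were not separated within either line by two-sided exact permutation tests (p = 0.6, 0.3 and 0.8 for Aurka, Aurkb and Aurkc in the Padi6 line, smallest possible 0.1, and p = 0.4 for each in the Tle6 line, smallest possible 0.067). The difference in shares between lines was not tested. The Aurkc share of Tle6 het replicate 2 was 55.0% in library A and 69.1% in B.

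**Figure D3:**
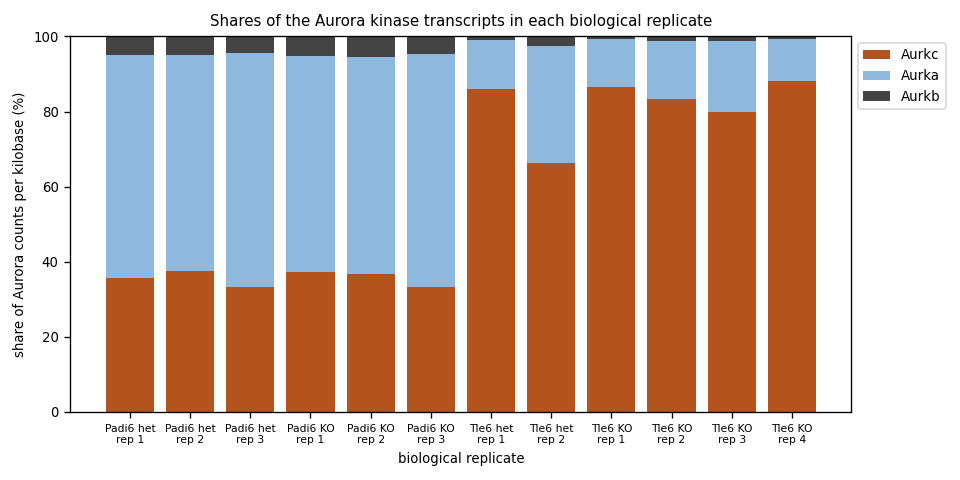
Share (%) of Aurka, Aurkb and Aurkc in the summed Aurora counts per kilobase of exon, 1 stacked bar for each of the 12 biological replicates. Aurkc makes up 33.2 to 37.4% of the bar in the Padi6 line and 66.2 to 88.0% in the Tle6 line.

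Incenp, the scaffold that binds and activates the kinase of the passenger complex, was at 150.1, 137.1 and 142.9 CPM in Padi6 het and 133.4, 113.7 and 111.8 CPM in Padi6 KO. Its log2 fold change there was -0.26 ± 0.10 (adjusted p = 0.189), with no overlap between the groups and no call. In the Tle6 line it was at 118.8 and 96.1 CPM in het and at 100.2, 169.3, 182.3 and 114.0 CPM in KO (0.44 ± 0.28, adjusted p = 0.42). The knockout replicates fell into a higher and a lower pair, and the lower pair overlapped the heterozygotes.

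Birc5, whose product survivin anchors the complex to phosphorylated histone at the centromere, was at 313.2, 288.6 and 299.5 CPM in Padi6 het and 298.6, 265.4 and 265.4 CPM in Padi6 KO. In Tle6 het it was at 172.7 and 187.6 CPM and in Tle6 KO at 168.0, 275.8, 268.1 and 213.8 CPM. Both Tle6 het replicates were below every Padi6 replicate. Between the heterozygotes Birc5 was lower in the Tle6 line (-0.74 ± 0.19, ratio 0.599, adjusted p = 0.0114). That call was lost without library B of Tle6 het replicate 2 (-0.31, adjusted p = 0.428), in which Birc5 was at 93.7 CPM against 314.3 CPM in library A, and without Tle6 het replicate 1 (-0.67, adjusted p = 0.0721). Its KO effect was -0.12 ± 0.09 for Padi6 and 0.41 ± 0.23 for Tle6, where it was -0.07 without library B.

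The 4 Tle6 KO replicates varied most for Aurkc, Cdc20, Incenp, Aurka and Birc5, with a highest over lowest level of 2.55, 2.43, 1.82, 1.65 and 1.64, against 1.11 to 1.44 for the other 5 genes. Replicates 1 and 4 had the higher Aurka, Aurkc and Cdc20 and the lower Incenp and Birc5, and replicates 2 and 3 the reverse. The split was not particular to the knockouts. Between the libraries of Tle6 het replicate 2, B over A was 2.02, 3.62 and 2.83 for Aurka, Aurkc and Cdc20. It was 0.482 and 0.298 for Incenp and Birc5. The share of mitochondrially encoded counts was 0.225 and 0.263% in KO replicates 1 and 4 and 0.475 and 0.461% in KO replicates 2 and 3. The summed granulosa list (20 genes, mostly Nr5a2 and Cyp19a1) was 113 and 110 CPM in replicates 1 and 4 and 132 and 130 CPM in 2 and 3. The part of these measures in the levels was not tested.

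Bub1b, which encodes BUBR1, the kinase-like inhibitor of CDC20, was the most abundant of the 10 per kilobase of exon. Its promoter (RefSeq, GRCm38.p6, chr2:118597961-118598260, plus strand, GC content 49.7%) is shown because Bub1b was the other gene higher in the Tle6 line in both comparisons between lines. Capitals mark the same letters as above, CCAAT on the minus strand and TTTGAA past the start.
Bub1b: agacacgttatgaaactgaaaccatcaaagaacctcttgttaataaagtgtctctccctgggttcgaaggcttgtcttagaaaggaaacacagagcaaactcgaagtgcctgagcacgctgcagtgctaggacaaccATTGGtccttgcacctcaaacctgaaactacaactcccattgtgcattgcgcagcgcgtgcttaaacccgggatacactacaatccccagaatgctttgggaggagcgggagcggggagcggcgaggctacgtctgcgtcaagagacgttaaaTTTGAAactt
Bub1b was at 2636, 2142 and 2581 CPM in Padi6 het and 2570, 2455 and 2528 CPM in Padi6 KO. In Tle6 het it was at 3030 and 3795 CPM and in Tle6 KO at 3896, 3741, 2981 and 4023 CPM. Every Tle6-line replicate was above every Padi6-line replicate, with heterozygotes and knockouts intermixed within each line. The difference between lines was 0.48 ± 0.16 for the heterozygotes (adjusted p = 0.0414) and 0.54 ± 0.14 for the knockouts (ratio 1.45, adjusted p = 0.00871). The latter was called under all 24 alternatives and the former under 11, with losses under total count scaling (0.17, adjusted p = 0.42), without library B of Tle6 het replicate 2 (0.40, adjusted p = 0.109), and without that replicate or any 1 of the 6 Padi6 replicates (0.30 to 0.53, adjusted p = 0.0558 to 0.304). KO over het was 0.04 ± 0.10 under loss of Padi6 and 0.14 ± 0.20 under loss of Tle6.

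Bub1, the kinase that recruits the checkpoint proteins and marks the centromere for the passenger complex, was at 222.4, 222.7 and 233.6 CPM in Padi6 het and 217.6, 217.9 and 257.5 CPM in Padi6 KO. It was at 320.6 and 421.0 CPM in Tle6 het and at 271.1, 260.3, 319.1 and 222.0 CPM in Tle6 KO. The Tle6 heterozygotes were thus above all other replicates. They exceeded the Padi6 heterozygotes by 0.71 ± 0.17 (ratio 1.64, adjusted p = 0.00701), but not without library B of het replicate 2 (0.42, adjusted p = 0.101), without that replicate (0.50, adjusted p = 0.0964) or under total count scaling (0.40, adjusted p = 0.084). The KO effect in the Tle6 line was -0.42 ± 0.20 (adjusted p = 0.299).

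Mad2l1, whose product MAD2 clasps CDC20, followed a like order. It was at 156.3, 115.9 and 133.0 CPM in Padi6 het, 141.5, 132.2 and 130.0 CPM in Padi6 KO, 176.0 and 244.1 CPM in Tle6 het, and 140.3, 154.9, 155.7 and 147.8 CPM in Tle6 KO. The Tle6 heterozygotes again stood above the other 3 groups, which overlapped in part. Between heterozygotes the difference was 0.64 ± 0.16 (ratio 1.55, adjusted p = 0.0111), called under 22 of 24 alternatives and lost without Tle6 het replicate 2 (0.38, adjusted p = 0.171) and under total count scaling (0.33, adjusted p = 0.149). The libraries of that replicate were alike for this gene, at 232.2 and 250.6 CPM. The KO effect was -0.45 ± 0.19 in the Tle6 line (adjusted p = 0.24) and -0.01 ± 0.11 in the Padi6 line.

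Bub3, the adaptor that carries BUB1 and BUBR1 to kinetochores, was at 494.3, 371.0 and 393.9 CPM in Padi6 het, 488.3, 456.4 and 420.0 CPM in Padi6 KO, 383.8 and 383.3 CPM in Tle6 het, and 296.5, 389.3, 374.2 and 334.0 CPM in Tle6 KO. Between the knockouts it was lower in the Tle6 line, by -0.38 ± 0.14 (ratio 0.766, adjusted p = 0.0434). The ranges did not overlap, yet the call held in 11 of 24 alternatives only, with adjusted p-values up to 0.147. It was lost without any 1 of the Padi6 KO replicates, without Padi6 het replicate 3, without Tle6 KO replicate 1, 3 or 4, and without either library of Tle6 het replicate 2. It was also lost under upper quartile scaling (adjusted p = 0.0679), with no filter on low counts (0.0891), with a replicate block (0.125) and with library A only (0.0645).

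Cdc20, the APC/C activator on which the checkpoint acts, was at 78.2, 80.9 and 102.1 CPM in Padi6 het and 94.9, 109.9 and 139.4 CPM in Padi6 KO, the largest fitted change of the 10 in that line (0.40 ± 0.16, adjusted p = 0.208) though the groups overlapped. It was called there in 2 of 15 alternatives, with no filter on low counts (adjusted p = 0.039) and with a replicate block (adjusted p = 0.0354). In the Tle6 line it was at 105.5 and 91.1 CPM in het and at 121.7, 50.03, 57.1 and 113.1 CPM in KO (-0.16 ± 0.36, adjusted p = 0.85). The knockouts lay on both sides of the heterozygotes, and the value was 0.20 without library B of het replicate 2. Exons of Cdc20 overlap those of Elovl1 on the opposite strand, and no source used here gives the strand setting of the counting, so reads of these genes may not be separated. Elovl1 was at 33.4 and 32.0 CPM in Tle6 het and at 57.0, 54.7, 40.6 and 87.1 CPM in Tle6 KO (0.92 ± 0.30, adjusted p = 0.15).

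In all, 5 of the 10 genes differed between the heterozygotes of the lines (4 higher and 1 lower in the Tle6 line), against 28.5% of all genes (15.9% higher and 12.7% lower), and 4 of the 10 between the knockouts (2 higher and 2 lower), against 32.5% (15.7% higher and 16.8% lower). Ranges of the replicates were apart for 8 of the 10 between heterozygotes (background 53.9%) and for 4 of the 10 between knockouts (40.5%). Without library B of Tle6 het replicate 2 the heterozygotes differed for 2 genes, Aurkc and Mad2l1, and without library A for 7. The calls over all genes moved the same way, from 6107 to 3724 without library B and to 6988 without library A. The 4 comparisons share groups with each other, so their counts are not independent.

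**Figure D4:**
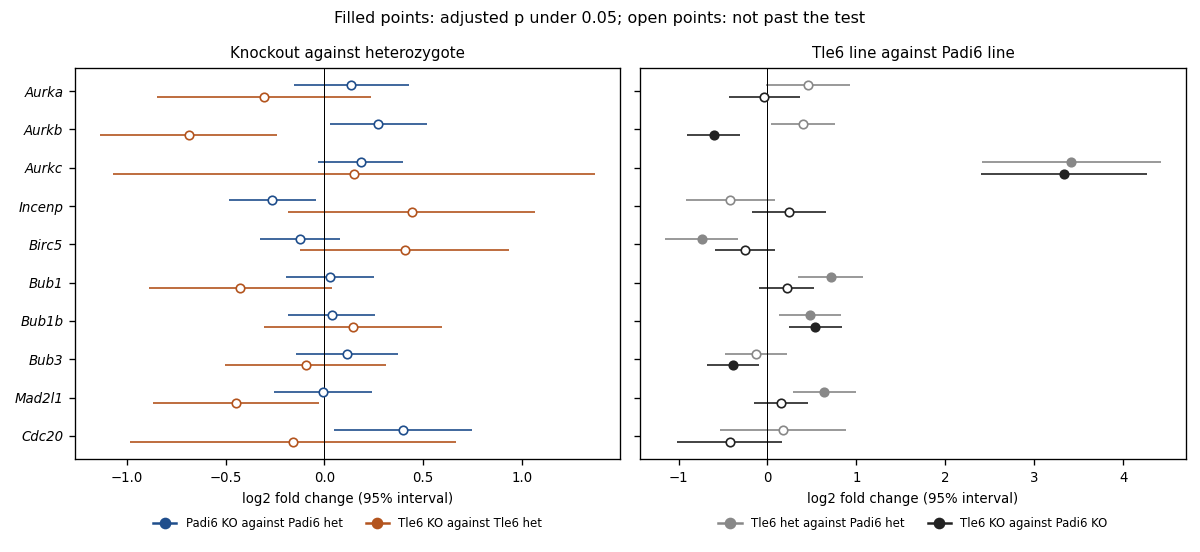
Log2 fold change of each gene with its 95% interval, KO over het in each line (left) and Tle6 line over Padi6 line within het and within KO (right); filled points had an adjusted p under 0.05. All points on the left are open, and Aurkc on the right lies at 3.42 and 3.34.

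Per kilobase of exon union, Bub1b had the highest level of the 10 in every group, at 574, 589, 798 and 856 CPM per kilobase in Padi6 het, Padi6 KO, Tle6 het and Tle6 KO. Aurkb had the lowest, at 9.54, 11.5, 12.6 and 7.6 CPM per kilobase. Aurka followed Bub1b in the Padi6 line (121 and 133 CPM per kilobase), and Aurkc in the Tle6 line (757 and 814). With the length of the principal transcript in place of the exon union, Aurkc (998 and 1070 CPM per kilobase) came above Bub1b (930 and 998) in the Tle6 line. In the Padi6 line Aurka (161 and 177 CPM per kilobase) then came behind Birc5 (317 and 292) and Bub3 (189 and 205). The order below Bub1b in the Padi6 line and that of the most abundant pair in the Tle6 line thus rest on the length used.

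The partners of these proteins were followed in 6 lists of 111 genes: further checkpoint genes, partners of the passenger complex with the factors that protect centromeric cohesion, partners of Aurora A, the outer kinetochore, the centromere, and the APC/C with its regulators. In Padi6 KO, 2 of the 111 fell and none rose by edgeR (1.8%, where 2.41% of all genes were called). An unadjusted p under 0.05 was found for 23 of the 111, where 18.6% of all genes had one. Cenpf, a kinetochore and centromere protein, fell from 262.6, 255.0 and 263.5 CPM to 197.5, 167.6 and 156.4 CPM (-0.59 ± 0.10, adjusted p = 0.0225). Hjurp, the chaperone that loads the centromeric histone CENP-A, fell from 81.4, 116.2 and 112.8 CPM to 69.3, 67.4 and 63.8 CPM (-0.64 ± 0.14, adjusted p = 0.0474). All KO replicates were below all het replicates for both genes, as they were for 10.6% of all genes. Both were named because these same values gave a call, so this is no separate support. Each call was lost on leaving out Padi6 het replicate 2 or 3 or Padi6 KO replicate 2 or 3 (and, for Hjurp, KO replicate 1), with adjusted p-values of 0.0538 to 0.173. With a spread shared by both lines neither was called (adjusted p = 0.232 for Cenpf and 0.096 for Hjurp), nor was Hjurp by limma-voom (0.0597).

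In Tle6 KO, again 2 of the 111 partners fell and none rose by edgeR (1.8%, background 1.62%). Unadjusted p-values under 0.05 were found for 15 of the 111, against 19% of all genes. Ppp6r2, a regulatory subunit of the phosphatase that opposes Aurora A, fell from 27.1 and 28.4 CPM to 7.39, 7.46, 4.45 and 5.85 CPM (-2.10 ± 0.25, adjusted p = 0.00566). The drop was called in 18 of 19 alternatives and not with a replicate block (-1.87, adjusted p = 0.0834). In that block KO replicates 3 and 4 had no het replicate of the same number, so they did not inform the effect. Clasp2, which steadies microtubule ends at kinetochores, fell from 60.8 and 64.5 CPM to 37.1, 25.9, 28.2 and 31.9 CPM (-0.98 ± 0.20, adjusted p = 0.0498). In the Padi6 line Ppp6r2 was at 7.59 to 14.5 CPM and Clasp2 at 38.3 to 48.3 CPM, so the Tle6 heterozygotes were the high group for both genes. The call on Clasp2 was lost without either het replicate, without KO replicate 2, 3 or 4, and without library B of het replicate 2 (adjusted p = 0.0981 to 0.166). It was lost too under upper quartile and total count scaling (adjusted p = 0.0518 and 0.0663), with a replicate block (0.256) and with library A only (0.136), and held in 9 of 19 alternatives.

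**Figure D5:**
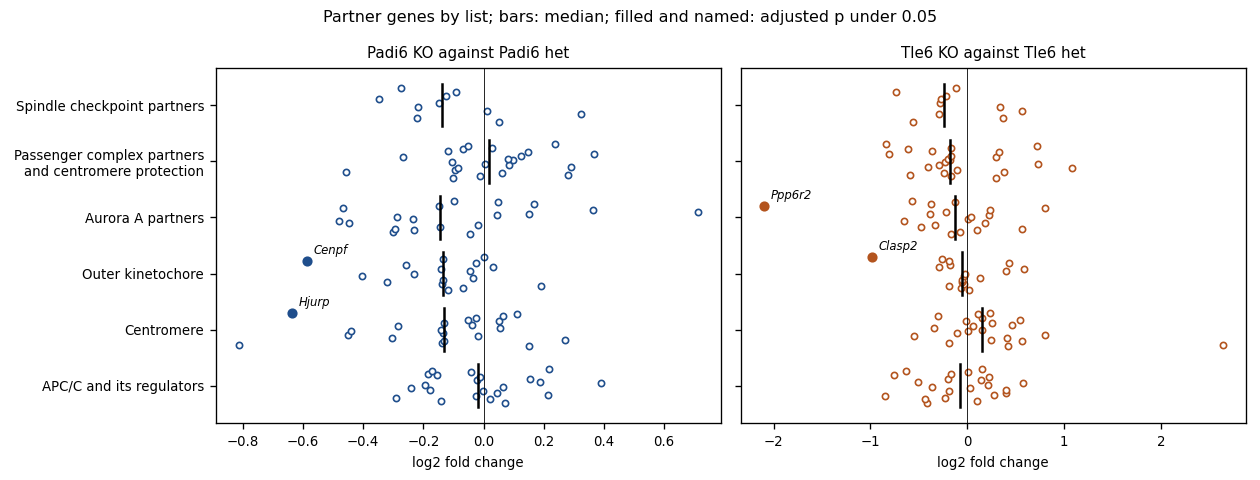
Log2 fold change of KO over het for the 111 partner genes in 6 lists, 1 point per gene, with the median of each list as a bar, in the Padi6 line (left) and the Tle6 line (right). Filled and named points had an adjusted p under 0.05: Cenpf and Hjurp on the left, Ppp6r2 and Clasp2 on the right.

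The KO effect differed between lines for 5 of the 111 partners (4.5%, background 4.32%), lower in the Tle6 line for Ppp6r2, Clasp2 and Ect2 and higher for Hjurp and Cenpb. Ect2, the exchange factor that starts the cytokinetic furrow, was at 368.9 and 468.8 CPM in Tle6 het and at 290.7, 190.9, 226.4 and 202.8 CPM in Tle6 KO, against 169.6 to 205.6 in Padi6 het and 188.6 to 271.5 in Padi6 KO. That difference was -1.12 ± 0.27 (adjusted p = 0.0324), and -0.66 (adjusted p = 0.337) without library B of Tle6 het replicate 2. The values for Ppp6r2, Clasp2, Hjurp and Cenpb were -2.002, -1.03, 0.82 and 3.39 (adjusted p = 0.0119, 0.0219, 0.0483 and 0.035). Cenpb, the binder of centromeric satellite repeats, was at 0.076 to 1.16 CPM throughout. Without library B, Clasp2, Hjurp and Cenpb were no longer called (adjusted p = 0.0768, 0.239 and 0.15). Over all alternatives the difference was called in 23 of 24 for Ppp6r2 (not with a replicate block, adjusted p = 0.0544), 16 of 24 for Clasp2, 12 of 23 for Cenpb, 10 of 24 for Ect2 and 8 of 24 for Hjurp. Besides library B, the calls were lost on leaving out several single replicates and with library A only for these last 4 genes. A replicate block ended those of Clasp2, Ect2 and Hjurp (adjusted p = 0.0737, 0.0971 and 0.0875), limma-voom those of Hjurp and Cenpb (0.051 and 0.0599), total count scaling that of Ect2 (0.0561), and separate technical libraries those of Ect2 and Hjurp (0.0953 and 0.0839).

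Between lines, 41 of the 111 partners differed in the heterozygotes (36.9%, background 28.5%; 21 higher and 20 lower in the Tle6 line) and 27 in the knockouts (24.3%, background 32.5%; 13 higher and 14 lower). Hjurp was the partner with the smallest p in both: it was at 63.8 to 116.2 CPM in the Padi6 line and 308.3 to 406.9 CPM in the Tle6 line (1.61 ± 0.16, adjusted p = 1.28e-05, and 2.43 ± 0.15, adjusted p = 7.64e-08). Fzr1, which encodes the APC/C activator CDH1 that holds GV oocytes in arrest, was at 72.8 to 87.7 CPM in the Padi6 line and 26.1 to 43.0 CPM in the Tle6 line (-1.39 and -1.27, adjusted p = 0.000282 and 4.9e-05). Mad2l1bp, whose product helps to take the MAD2 complex apart, was at 32.6 to 37.4 CPM in Padi6 KO and 8.07 to 14.8 CPM in Tle6 KO (-1.65, adjusted p = 1.54e-05). Espl1, the gene of separase, was at 184.4 to 244.7 and 68.7 to 96.2 CPM in these groups (-1.36, adjusted p = 1.29e-05).

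The other partners named by smallest p moved in both directions. Between heterozygotes, Cenpq (1.39), Nedd9 (0.98), Ect2 (1.12) and Nup153 (0.74) were higher and Cenps (-1.05) and Ppp2r5b (-2.05) lower in the Tle6 line, with adjusted p-values of 0.000316 to 0.00186. Nedd9, Ect2 and Nup153 were not called without library B of Tle6 het replicate 2 (adjusted p = 0.152, 0.0649 and 0.172). Between knockouts, Cenpk (1.67), Bora (0.97) and Ppp2r5a (1.24) were higher and Ppp2r5b (-2.21) lower, with adjusted p-values of 0.000117 to 0.000763. Bora, whose product brings Aurora A to PLK1, was at 140.1 to 166.3 CPM in Padi6 KO and 238.0 to 367.0 CPM in Tle6 KO.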

How the data were processed

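The authors deposited whole-number counts of reads per gene for each of the 15 libraries, with no scaling. The submitters' processing notes name bcl2fastq 2.20.0.422, cutadapt 2.8, STAR 2.7.8a and HTSeq 2.0.2, with the mm39 build. No source used here gives the annotation release or the strand setting. Reads with several alignments (12.09 to 14.51%) were set apart, so reads shared by paralogs are not counted. Spike-ins and unassigned reads (5.39 to 7.29% outside genes) were left out of all totals. Symbols, lengths and overlaps between genes came from GENCODE M21 on GRCm38 (52147 of 53700 identifiers matched). Its coordinates served only for lengths and overlaps, since the counts were made on another build.

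Groups came from the titles and genotype labels. Technical libraries of a replicate were added. Genes passing filterByExpr (minimum count 10) were scaled by TMM and tested in edgeR 4.0.16 (R 4.3.3) by robust glmQLFit and the two-sided glmQLFTest. P-values were adjusted over every gene tested by Benjamini-Hochberg and called under 0.05. KO and het were fitted within a line. The difference between the lines' KO effects and the comparisons between lines were contrasts over all 12 biological replicates. All 10 genes passed the filter in every comparison. Errors of log2 fold changes are standard errors, and intervals cover 95%. Aurora shares were tested by exact permutation, two-sided. Alternatives were other scalings and filters, DESeq2 1.42.0, limma-voom (limma 3.58.1), a spread shared by both lines, a replicate block, other ways to use libraries A and B, and each replicate left out. In the comparisons between lines the replicate block joined equal replicate numbers of both lines, although no label links these replicates. Some alternatives there left out only replicates or libraries of the genotype not compared. These could change the filter, scaling and shared spread but not the compared counts. The number of alternatives that kept a call therefore overstates how far it was checked. The fits were tested on simulated counts. Named were all 10 genes and, of the partner lists, up to 8 called genes a comparison by smallest p. The genes and lists were chosen with earlier results of these data known, and the principal transcript lengths were added after seeing the data.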

Additional observations from a re-analysis of the deposited data

Results flagged for a closer look

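Of the 10 genes, 1 was flagged because its KO effect differed between the lines by the test of the difference itself: Aurkb, at -1.01 on the log2 scale. Of the partner genes, 5 were flagged for the same reason: Ppp6r2 at -2.002, Clasp2 at -1.03, Ect2 at -1.12, Cenpb at 3.39 and Hjurp at 0.82. Without library B of Tle6 het replicate 2, the difference for Ppp6r2 was still called and the other 5 were not. No Tle6 KO replicate stood apart from the other 3 beyond Dixon's 95% critical value for any of the 10 genes. The rule was applied to that group of 4 only. It looks for a single replicate at the end of the range, so it cannot flag a split into pairs. Such a split was described above for Aurka, Aurkc, Cdc20, Incenp and Birc5.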

How the results depend on the processing

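Over all alternatives the values of the 10 genes kept their direction and their side of the threshold 970 times, lost a call 42 times, gained one 9 times and changed sign 39 times. The sign changes below were in values that did not pass the test, and their cause was not tested. Total count scaling shifted the median of all genes by 0.157 for the Tle6 KO effect, 0.224 for the difference between lines and -0.309 for the heterozygotes between lines. The principal transcript lengths were added after seeing the data.

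Of the 10 genes, the Padi6 KO effect was called for 1 (Cdc20) with no filter on low counts. The Tle6 KO effect was called for 1 (Aurkb) under DESeq2, with a spread shared by both lines and with technical libraries separate. The difference between lines was called for 0 of the 10 without library B of Tle6 het replicate 2 and with library A only. Between heterozygotes, 3 of the 10 were called under total count scaling and 2 without that library or with library A only. Without single replicates the count was 0 in each KO effect, 0 to 1 in the difference, 2 to 5 between heterozygotes and 3 to 4 between knockouts.

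Over all genes the main counts were 440 (Padi6 KO effect), 329 (Tle6 KO effect), 924 (difference), 6107 (heterozygotes) and 6950 (knockouts). With no filter they were 1625, 1447 and 2078 for the KO effects and the difference, and under DESeq2 1336, 1732 and 1997. A spread shared by both lines gave 60 and 2061 for the KO effects. A mean of at least 5 CPM gave 567, 4047 and 3889 for the difference, heterozygotes and knockouts. For the Tle6 KO effect, the difference and the heterozygotes, the counts were 120, 382 and 3724 without library B of Tle6 het replicate 2, and 118, 369 and 3534 with library A only. Technical libraries kept separate gave 1231 for the Tle6 KO effect. Leaving out single replicates gave 61 to 258, 119 to 292, 406 to 1465, 3953 to 6283 and 5108 to 7461 in the order of the main counts.

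The labels do not say that equal replicate numbers are pairs, and the main tests did not take them as pairs. Same-numbered replicates of the Padi6 line correlated at 0.289, 0.0434 and 0.137 in their deviations from the group means. Different-numbered ones correlated at -0.279 to 0.173. In the Tle6 line the values were 0.138 and 0.236 for same numbers and -0.318 to 0.318 for different numbers. Deviations cancel out within a group, so these values depend on each other and do not decide whether numbers are pairs. With a replicate block, 1 (Cdc20), 0, 0, 4 and 3 of the 10 genes and 859, 57, 400, 5406 and 6364 of all genes were called in that order. The value was 0.0016 for the Padi6 KO effect on Mad2l1 and 0.1186 for the difference of Aurkc. Between lines the block joined equal numbers of both lines, which no label links. In the Tle6 line KO replicates 3 and 4 had no het replicate of the same number. They did not inform the blocked KO effect there, which was left with few degrees of freedom.

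The Padi6 KO effect on Mad2l1 (-0.0062) was 0.0082 under upper quartile scaling, 0.0199 with a mean of at least 5 CPM and 0.003 under limma-voom. The Tle6 KO effect on Bub3 (-0.0944) was 0.0672 under total count scaling. Without library B of Tle6 het replicate 2 and with library A only, the Tle6 KO effect was -0.0684 and -0.0701 for Birc5 and 0.1988 and 0.1868 for Cdc20, the difference for Aurkc 0.1205 and 0.11, and Cdc20 between heterozygotes -0.2215 and -0.1839. The difference for Aurkc was 0.1089 under total count scaling, 0.0934 under limma-voom and 0.0873 with technical libraries separate, and that for Bub1b was -0.0178 without library A. Cdc20 between heterozygotes was -0.1303 under total count scaling. Aurka between knockouts was 0.0025 under upper quartile scaling and 0.0077 with technical libraries separate. Leaving out single replicates changed the sign of some values and gave these ranges. For the Padi6 KO effect they were -0.0902 to 0.1054 (Mad2l1), -0.0369 to 0.086 (Bub1b) and -0.0612 to 0.0756 (Bub1), and for the Tle6 KO effect -0.0294 to 0.2783 (Bub1b), -0.5465 to 1.3722 (Aurkc) and -0.3948 to 0.0347 (Cdc20). For the difference they were -0.7399 to 1.1519 (Aurkc) and -0.1028 to 0.2316 (Bub1b), for Bub3 between heterozygotes -0.2139 to 0.0024 and for Aurka between knockouts -0.1554 to 0.0962. The KO minus het share in percentage points ran from -2.24 to 0.481 (Aurka) and -0.666 to 1.65 (Aurkc) in the Padi6 line, and from -16.5 to 1.61 and -1.6 to 18.3 in the Tle6 line.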

Other observations

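The genes whose levels went most like those of each of the 10 were found as the smallest root mean square difference of centred log2(CPM + 1) over the 12 biological replicates, among 7398 protein-coding genes with a mean of at least 10 CPM. The 12 replicates share the lines and, in the Tle6 line, the unlike libraries of het replicate 2, so the likeness is a description and carries no test. For the Aurora kinases, Jade2 (0.0976), Slc35b4 (0.114) and Det1 (0.118) were closest to Aurka, and Nde1 (0.0944), Tpp2 (0.11) and Gtsf1 (0.112) to Aurkb. Nde1 encodes a dynein regulator that works at centrosomes and kinetochores. For Aurkc the nearest were Dph7 (0.445), Lypd9 (0.47) and Rp9 (0.491), larger differences than for the other genes here. The measure is not scaled to a gene's own spread, which was widest for Aurkc. The size of these differences therefore does not tell how closely the profiles match.

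Among the passenger genes, Bms1 (0.0945), Sf3b2 (0.0975) and Fdft1 (0.103) were closest to Incenp, and Puf60 (0.0651), Cox7a2l (0.0782) and Lzic (0.0906) to Birc5. Among the checkpoint genes, Ssr3 (0.0812) and N4bp2 (0.0831) were closest to Bub1, and Gna14 (0.077) and Gins4 (0.117) to Bub1b. Rab38 (0.0737), Eef1b2 (0.0984) and Fbxw14 (0.101) were closest to Bub3, and Lztfl1 (0.073), Rap1a (0.0741) and Sesn3 (0.0779) to Mad2l1. For Cdc20 they were Sptlc2 (0.123), Bud13 (0.144) and Clcn3 (0.152). No gene of the 6 partner lists was among these.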
